A study of Mus musculus with 6 samples.

Results

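The genes followed here are 10 oncofetal liver genes, *Afp*, *Gpc3*, *Dlk1*, *Igf2bp1*, *Igf2bp2*, *Igf2bp3*, *Lin28a*, *Lin28b*, *Mest* and *Peg3*, out of 35683 genes measured. They were chosen by name as genes that fetal liver or liver cancer is known to express. The samples are 6 liver tumors from 2 male C57BL/6 mice of the CMRtdT genotype, with 3 tumors from each mouse. CMRtdT mice carry a *Ctnnb1* allele whose exon 3 is removed by Cre, which leaves a stabilized β-catenin, the *MUP-uPA* transgene, which injures hepatocytes, and a *R26* reporter that turns on tdTomato. Cre came from AAV8-TBG-Cre, a virus whose TBG promoter is active in hepatocytes, given into the tail vein at 8 weeks of age to mice on a high-fat diet from 6 weeks. All 6 tumors were excised 6.5 months after the injection and belong to 1 condition, and liver without tumor was not analysed here, so the values are levels in tumors and not changes against normal liver.

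Oncofetal genes are transcribed in the fetal liver, are shut down around birth and can return in liver tumors. α-fetoprotein, glypican-3 and delta-like 1 are secreted or surface proteins, and the first is a serum marker of hepatocellular carcinoma. IGF2BP1, IGF2BP2 and IGF2BP3 bind and stabilize mRNAs, and LIN28A and LIN28B block the maturation of let-7 microRNAs, which in turn repress *Lin28a*, *Lin28b* and the *Igf2bp* genes. *Mest* and *Peg3* are imprinted genes of which the paternal allele is the one transcribed, while the promoter of the maternal allele carries DNA methylation. *Dlk1* is imprinted as well.

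The promoters of 4 members are shown because they mark the kinds of start that these genes have: a liver start with few CpG dinucleotides (*Afp*), a CpG-rich start (*Gpc3*) and the starts of the imprinted pair (*Mest*, *Peg3*). Each window is from RefSeq on GRCm38.p6, reads 5′ to 3′ on the strand of the gene and covers 250 bases before to 50 bases after the annotated start. In *Afp*, at chr5:90490464-90490763 on the plus strand, capitals mark TATAAA and GTTAAT. In *Gpc3*, at chrX:52613925-52614224 on the minus strand, capitals mark GGGCGG, here found on the opposite strand in all 4 cases. In *Mest*, at chr6:30737800-30738099 on the plus strand, and *Peg3*, at chr7:6730370-6730669 on the minus strand, capitals mark each CpG, the dinucleotide that DNA methylation acts on.
Afp: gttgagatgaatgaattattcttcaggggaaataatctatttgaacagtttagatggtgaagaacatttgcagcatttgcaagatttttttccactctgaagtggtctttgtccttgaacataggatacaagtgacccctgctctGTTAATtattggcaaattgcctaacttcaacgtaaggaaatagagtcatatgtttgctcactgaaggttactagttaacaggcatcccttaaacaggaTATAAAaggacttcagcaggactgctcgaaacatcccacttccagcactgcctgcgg
Gpc3: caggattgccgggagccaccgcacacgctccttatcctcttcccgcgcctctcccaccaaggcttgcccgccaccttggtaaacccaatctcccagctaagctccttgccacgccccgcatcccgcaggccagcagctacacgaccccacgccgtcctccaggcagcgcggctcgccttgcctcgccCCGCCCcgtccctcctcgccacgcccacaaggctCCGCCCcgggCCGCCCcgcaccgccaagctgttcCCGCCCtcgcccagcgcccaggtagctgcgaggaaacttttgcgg
Mest: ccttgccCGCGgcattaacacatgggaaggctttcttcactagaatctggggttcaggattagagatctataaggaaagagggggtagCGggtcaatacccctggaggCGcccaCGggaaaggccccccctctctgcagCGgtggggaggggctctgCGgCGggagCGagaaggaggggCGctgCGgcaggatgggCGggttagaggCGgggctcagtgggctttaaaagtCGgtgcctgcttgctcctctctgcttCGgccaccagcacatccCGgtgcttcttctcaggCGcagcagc
Peg3: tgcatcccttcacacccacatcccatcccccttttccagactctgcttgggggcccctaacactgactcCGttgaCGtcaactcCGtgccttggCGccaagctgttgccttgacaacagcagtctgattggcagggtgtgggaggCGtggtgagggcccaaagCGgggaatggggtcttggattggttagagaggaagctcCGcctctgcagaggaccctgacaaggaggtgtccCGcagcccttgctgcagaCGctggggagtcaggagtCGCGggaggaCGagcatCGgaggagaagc

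These windows differed mainly in CpG content. The *Afp* window held 3 CpG, against a median of 7 and quartiles of 3 and 20 over 32851 promoter windows. *Gpc3* held 30, *Mest* 17 and *Peg3* 13, and the windows of *Igf2bp2* and *Igf2bp3* held 47 and 25. *Lin28a*, *Dlk1* and *Lin28b* held 10, 9 and 8. RefSeq lists 3 windows for *Mest*, of which the other two had 8 and 17 CpG, and the table holds no window for *Igf2bp1*. Letters were searched on both strands, with no overlap between matches in these windows. TATAAA, the core of a TATA box, was in the *Afp* window at bases 244 to 249, counted from its first base, and in no other member's window, against 13.6% of all windows. GTTAAT, part of the site of the liver factor HNF1, was at bases 146 to 151 of the *Afp* window and in a pair of the *Mest* windows, against 7.10% of all windows. GGGCGG, the core of an Sp1 site, was in the windows of *Gpc3*, *Igf2bp2*, *Lin28a* and *Mest*, against 35.7% of all windows. CTTTGA, the core of a site for the TCF/LEF partners of β-catenin, was found in the *Lin28a* window and in no other member's, against 16.003% of all windows. TGTTTAC, a forkhead-type site, was found at 2 places in the *Dlk1* window, against 3.65% of all windows. CACGTG, an E-box, was in the windows of *Igf2bp3* and *Lin28b*, against 7.15%. A match describes the letters in a window and is not a measured binding site.

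Tumors are named here by the number of the mouse (M) and of the tumor (T), from M1T1 to M2T3. The estimated reads of a tumor summed to between 19130532 and 27681766. M1T1 stood apart from the other 5. Its hepatocyte markers summed to 2362 TPM (transcript abundance scaled for length and depth to a fixed sum), against 24937 to 48023 TPM in the other 5, and all 8 of these markers had their lowest value in it. Albumin itself was at 702 TPM there and at 8348 to 16603 TPM elsewhere. It was also the lowest tumor for 7 of 7 macrophage markers and 6 of 7 endothelial markers, and it had the highest value of 62.6% of the 12518 genes averaging at least 1 TPM. Counts of genes highest in M1T1 are to be read against that share. Each result below that rests on this tumor is therefore given with and without it. In a tumor of mixed cells, fewer cells of a type and less RNA per cell cannot be told apart.

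Of the 10 genes, 8 had at least 1 estimated read in a tumor and 6 averaged at least 1 TPM. *Gpc3* was the most abundant and the only member above 1 TPM in each of the 6 tumors. *Mest* and *Peg3* came next by mean, but those means were set by M1T1. *Afp*, *Dlk1*, *Igf2bp3* and *Igf2bp2* followed at low levels, *Igf2bp1* had 2 reads in all, and *Lin28a* and *Lin28b* had none. By mean over 6 tumors the order was *Gpc3* (8.84 TPM), *Mest* (5.89), *Peg3* (4.89), *Afp* (2.49), *Dlk1* (1.37), *Igf2bp3* (1.16), *Igf2bp2* (0.725) and *Igf2bp1* (0.00220). Without M1T1 it was *Gpc3* (8.27 TPM), *Afp* (2.88), *Mest* (1.51), *Igf2bp3* (1.36), *Dlk1* (1.24), *Igf2bp2* (0.853) and *Peg3* (0.245). The ranges of neighbors in the first order overlapped for every pair down to *Igf2bp3* and *Igf2bp2*. *Gpc3* was above *Mest* in 5 of 6 tumors, *Afp* was above *Dlk1* in 5 of 6, but *Peg3* was above *Afp* in 1 of 6.

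**Figure D1:**
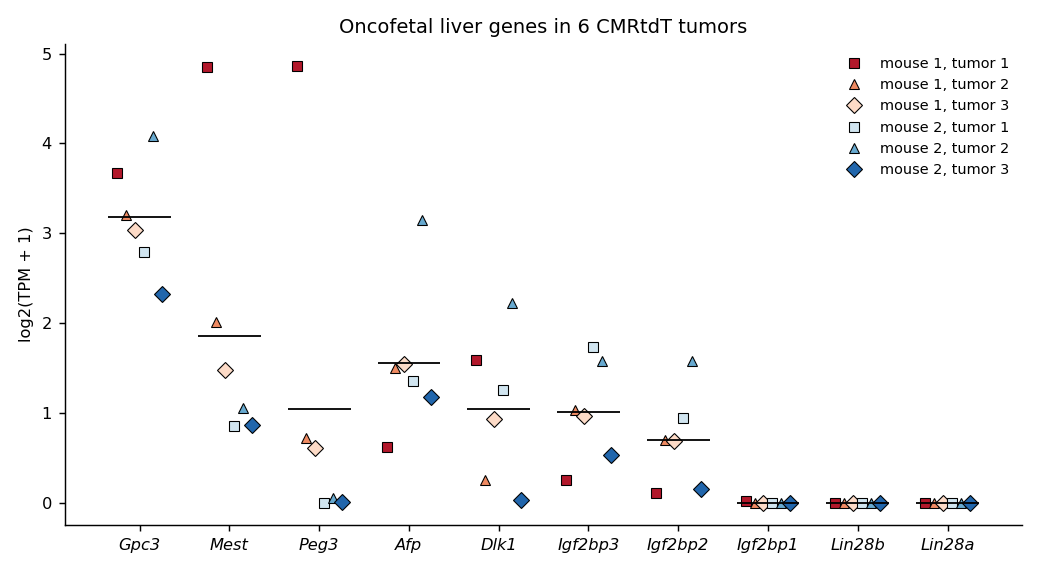
Level of each of the 10 genes as log2(TPM + 1) on the vertical axis, with 1 point per tumor and a line at the mean of 6 tumors. M1T1 lies far above the other 5 for *Mest* and *Peg3*, and M2T2 is the highest for *Gpc3*, *Afp*, *Dlk1* and *Igf2bp2*.

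*Afp*, the fetal relative of albumin, lies on chromosome 5 at chr5:90490714-90508907 (GRCm38), next to *Alb*. It stood at 0.536, 1.83 and 1.92 TPM in M1T1, M1T2 and M1T3, and at 1.56, 7.85 and 1.26 TPM in M2T1, M2T2 and M2T3. M2T2 was therefore the highest by 4.08-fold over the next, and 4 tumors lay close together between 1.26 and 1.92 TPM. M2T2 was the highest by at least as much in 7 of 12518 genes. The level in M2T2 rested on 244 estimated reads, with a 95% exact Poisson interval of 214 to 277, and those of the other 5 tumors on 19 to 50 reads. Such intervals cover counting error only. The mean was 2.49 ± 2.67 TPM (SD, n = 6), and 1.42 TPM without M2T2. Coding transcripts took 93.3% of *Afp* reads but less of its TPM, with a coding mean of 1.89 TPM over the 6 tumors. The rest was assigned to short transcripts with a retained intron. The coding transcript *Afp*-201 was at 6.67 TPM in M2T2, 1.17 TPM in M2T1, and 1.05 and 1.01 TPM in M1T2 and M1T3. The rest of the albumin gene cluster did not share this pattern: *Alb*, *Gc* and *Afm* were highest in M1T3, M1T3 and M2T1. *Gc*, the vitamin D binding protein, was at 3275 TPM in M2T2 and at 2615 to 4041 TPM in the other tumors except M1T1, where it was at 110 TPM. In TPM, *Afp* came to 0.0764%, 0.0114% and 0.0116% of *Alb* in mouse 1 and to 0.0187%, 0.0922% and 0.00962% in mouse 2, and *Alb* was at its lowest in M1T1.

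Genes known to act on the *Afp* promoter and enhancers after birth were present in the tumors. Of 6 repressors of *Afp*, 5 averaged at least 1 TPM, and 4 of these 5 were highest in M1T1, the tumor with the least *Afp*. *Zhx2*, the repressor that sets adult *Afp* levels among mouse strains, was at 28.4 TPM in that tumor and at 2.43 to 6.02 TPM in the other 5, with 4.61 TPM in M2T2. *Trp53*, which encodes p53, was at 67.7 TPM there and at 10.3 to 21.7 TPM in the others. *Zhx1*, a relative of *Zhx2*, was at 21.9 TPM there and at 8.95 to 15.2 TPM in the others. All 10 liver factors of the *Afp* control region averaged at least 1 TPM, and 8 of them were lowest in M1T1. *Hnf4a*, a master regulator of hepatocyte genes, was at 5.08 TPM there and at 99.6 to 182 TPM in the other 5. *Cebpa* was at 6.83 TPM there and at 79.7 to 183 TPM elsewhere, and its relative *Cebpb* at 7.07 TPM there and 79.9 to 162 TPM elsewhere. No factor of this list was highest in M2T2, beside 5.86% of the 12518 genes averaging at least 1 TPM. Without M1T1 there was again none, beside 15.8% of 11324 genes. The share of all genes that were lowest in M1T1 was not counted. The part of these regulators in the *Afp* levels was not tested.

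*Gpc3*, a heparan sulfate proteoglycan held on the cell surface by a lipid anchor, lies at chrX:52272426-52613974. It stood at 11.7, 8.20 and 7.22 TPM in M1T1, M1T2 and M1T3, and at 5.92, 15.998 and 4.003 TPM in M2T1, M2T2 and M2T3. The 2 mice overlapped fully, with M2T2 at the top and M2T3 at the bottom. The reads ran from 154 to 613 per tumor and came from coding transcripts alone. The mean was 8.84 ± 4.34 TPM (SD, n = 6), and leaving out M1T1 gave 8.27 ± 4.60 TPM (SD, n = 5). Other glypicans were more abundant. *Gpc4* was at 219 TPM in M1T1 and at 19.7 to 35.7 TPM in the other 5, and *Gpc1* at 81.9 TPM against 18.9 to 37.0 TPM. *Gpc2* was at 14.3 TPM in that tumor and at most 0.107 TPM elsewhere, and *Gpc5* had no reads. Of 10 glypicans and syndecans, 8 averaged at least 1 TPM and *Gpc3* was 1 of the 8 that could be tested, of which 0 were called between the mice. Over all genes tested, 0 of 13268 were called with 6 tumors, and 0.419% higher and 0.837% lower in mouse 2 without M1T1. *Sdc4* and *Sdc2*, the most abundant syndecans, had means of 96.7 and 53.7 TPM.

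Enzymes and other factors that build, trim or accompany glypicans were also measured, in a list that includes *Gpihbp1*, a carrier of lipoprotein lipase. All 11 averaged at least 1 TPM, and 7 were highest in M1T1, beside 62.6% of all genes at that level. *Notum*, whose enzyme inactivates Wnt proteins, was at 1822 TPM in that tumor and at 17.4 to 101 TPM in the others. *Furin*, the protease that cleaves the *Gpc3* protein, was at 21.7 TPM there and at 54.1 to 97.0 TPM elsewhere. *Ndst1*, which sulfates the heparan chains, was at 22.4 to 39.4 TPM over the 6 tumors. *Sulf1*, which removes sulfate from them, was the only one of the 11 that was called between the mice, and only without M1T1. It stood at 53.0, 0.805 and 0.770 TPM in M1T1, M1T2 and M1T3, and at 0.284, 0.309 and 0.0495 TPM in M2T1, M2T2 and M2T3. The mice did not overlap, and the log2 fold change of mouse 2 against mouse 1 without M1T1 was −3.55 ± 0.385 (SE, edgeR, adjusted p = 0.0290).

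*Dlk1*, a surface protein of hepatoblasts that is related to Notch ligands, lies at chr12:109452485-109463336. It stood at 2.01, 0.191 and 0.912 TPM in M1T1, M1T2 and M1T3, and at 1.39, 3.67 and 0.0258 TPM in M2T1, M2T2 and M2T3. Each mouse held a tumor with almost none and a tumor above 2 TPM. The counts behind these levels were small, with 59, 4 and 16 reads in mouse 1 and 49, 76 and 2 in mouse 2, so the lowest values have wide intervals: 1.09 to 10.2 reads for M1T2 and 0.242 to 7.22 for M2T3. The reads were divided among 7 coding transcripts, and the shortest of these, of 483 bases, weighed heavily in TPM. In M2T2 it had 8.19 of 76 reads but 1.71 of 3.67 TPM. In M1T3 it had 3.3 of 16 reads but 0.623 of 0.912 TPM. The TPM of these tumors therefore rests in part on few reads. By reads, M2T2 was still above M1T1, with 76 against 59, and M1T3 above M1T2, with 16 against 4. The other genes of the imprinted *Dlk1*-*Dio3* domain were close to absent. *Dio3*, a thyroid hormone deiodinase, reached at most 0.437 TPM, *Rtl1* 0.0166 TPM and *Begain* 0.0939 TPM, and 3 further genes of the domain were not measured here. Of 14 genes of the Notch pathway, 11 averaged at least 1 TPM, 9 of which were highest in M1T1 and 0 in M2T2, the tumor with the most *Dlk1*. Over all 12518 genes averaging at least 1 TPM, 62.6% were highest in M1T1 and 5.86% in M2T2. Without M1T1, 15.8% of 11324 genes were highest in M2T2, and again none of these Notch pathway genes. *Hes1*, a Notch target, was at 70.9 TPM in M1T1 and at 5.27 to 11.6 TPM in the other 5. *Adam17*, a protease that releases the outer part of DLK1, was at 22.8 TPM against 2.97 to 8.02 TPM, and *Rbpj*, the nuclear partner of Notch, at 12.6 TPM against 2.52 to 5.93 TPM. *Dlk2*, the nearest relative of *Dlk1*, was at most 0.210 TPM.

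**Figure D2:**
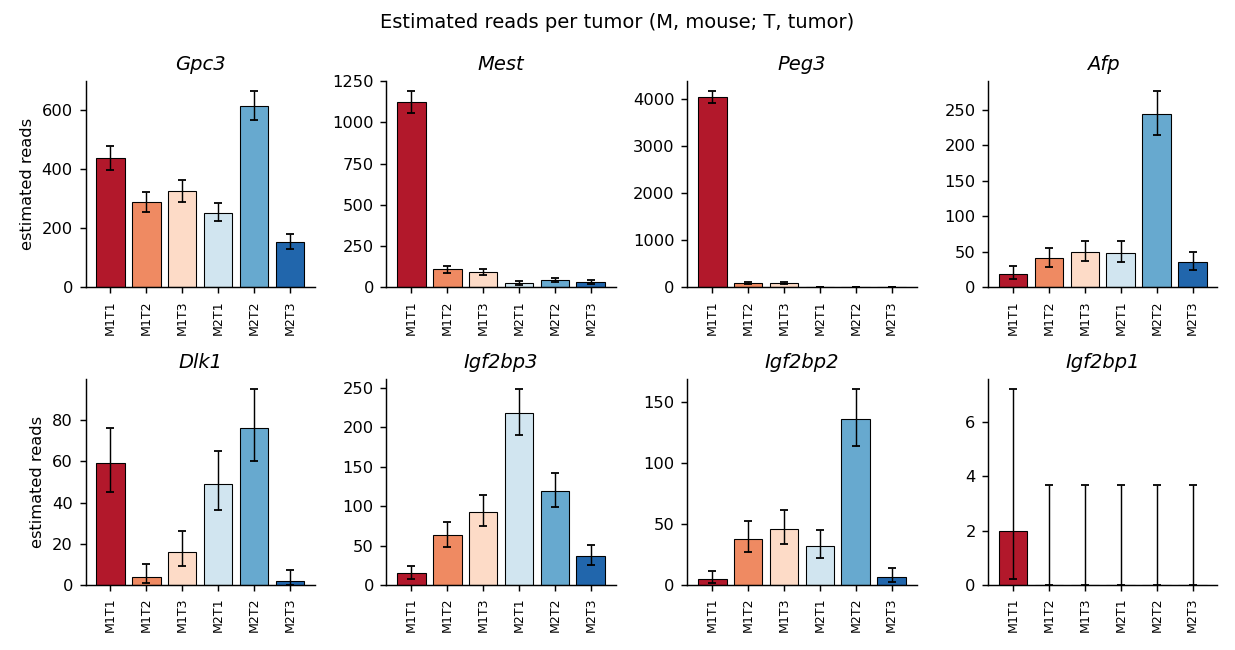
Estimated reads of the 8 detected genes in each tumor (M, mouse, T, tumor), with bars from 0 and 95% exact Poisson intervals that cover counting error only. *Peg3* had 4042 reads in M1T1 and at most 97 in any other tumor, and *Igf2bp1* had 2 reads in M1T1 alone.

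The 3 *Igf2bp* genes, whose proteins bind mRNAs at KH and RRM domains, went from low to nearly absent. *Igf2bp3*, at chr6:49085218-49215469, stood at 0.193, 1.05 and 0.951 TPM in M1T1, M1T2 and M1T3, and at 2.34, 1.99 and 0.443 TPM in M2T1, M2T2 and M2T3. M1T1 was the lowest, and M2T1 and M2T2 were the highest, while M2T3 lay among the values of mouse 1. It had 15 to 218 reads per tumor, of which 93.4% were from the coding transcript. In TPM the coding transcript averaged 0.955, with 2.22 in M2T1 and 1.35 in M2T2. *Igf2bp2*, at chr16:22059009-22163299, stood at 0.0845, 0.620 and 0.608 TPM in mouse 1, and at 0.930, 2.00 and 0.115 TPM in mouse 2. M1T1 and M2T3 were again the lowest. Of the *Igf2bp2* reads, 34.0% were assigned to a coding transcript and 53.1% to transcripts with a retained intron. This assignment differed between tumors with few reads. M1T2 had 31.0 reads on a transcript of 3337 bases with no defined coding sequence, and 0 on a retained-intron transcript of 3267 bases. In M1T3 these had 0 and 34.2 reads. How much of the *Igf2bp2* level is coding mRNA was not tested. The coding share was 0% of 5 reads in M1T1, 0% of 7 reads in M2T3 and 43.3% of 136 reads in M2T2, and the coding mean was 0.185 TPM against 0.725 TPM over all transcripts. *Igf2bp1*, at chr11:95957163-96005944, had 2 reads in M1T1, with an interval of 0.242 to 7.22 reads, and 0 in the other 5 tumors. A count of 0 allows up to 3 reads by a one-sided 95% limit, which is at most 0.0204 TPM of *Igf2bp1* in these tumors.

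**Figure D3:**
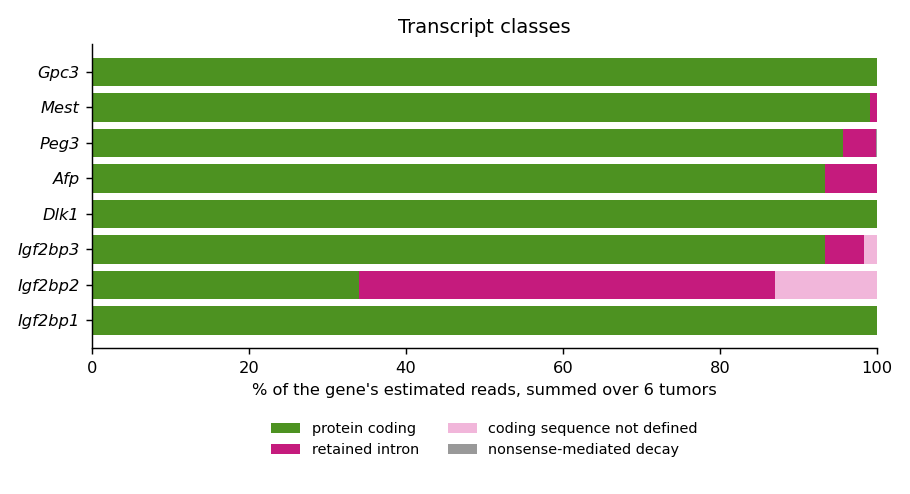
Share of the estimated reads of each gene, summed over 6 tumors, that was assigned to each class of transcript, in percent. *Igf2bp2* has 34.0% in coding transcripts, and each of the other 7 detected genes has at least 93.3%.

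*Lin28a* and *Lin28b* had 0 reads in all 6 tumors. They lie at chr4:134003330-134019196 and chr10:45376617-45486314. By the same limit, a count of 0 allows up to 3 reads per tumor, which comes to between 0.0404 and 0.0510 TPM for *Lin28a* and between 0.0255 and 0.0322 TPM for *Lin28b*. The machinery on which LIN28 proteins act was present. All 10 genes of let-7 processing and turnover averaged at least 1 TPM, and 8 were highest in M1T1. *Ddx5*, a helicase of the microprocessor, was at 347 TPM in that tumor and at 67.6 to 113 TPM in the others. *Tut7*, which adds uridines to let-7 precursors, was at 21.4 TPM there and at 19.1 to 44.0 TPM elsewhere, and *Tarbp2*, the partner of Dicer, kept to between 12.5 and 19.2 TPM. Mature microRNAs were not measured by these libraries. Of 22 textbook let-7 targets, which include 5 of the 10 genes followed here, 14 averaged at least 1 TPM and 16 could be tested, with 0 called between the mice. With 6 tumors, 0 of all 13268 genes tested were called, so this count does not set these targets apart. *Ccnd1*, cyclin D1, was at 203 TPM in M1T1 and at 13.7 to 24.3 TPM elsewhere. *Hmga1*, a chromatin protein, was at 24.2 TPM there, 53.2 TPM in M2T2 and 23.1 TPM in M2T3.

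Partners and readers that share mRNAs with the IGF2BP proteins were mostly highest in M1T1, as were 62.6% of the 12518 genes averaging at least 1 TPM. All 10 partner and target mRNAs averaged at least 1 TPM and had their highest value in M1T1, as did 10 of 11 writers, erasers and other readers of m6A, the mRNA mark that IGF2BP proteins recognize. *Pabpc1*, the poly(A) binding protein, was at 917 TPM in that tumor and at 117 to 201 TPM in the others, *Ybx1* at 356 TPM against 124 to 247 TPM, and *Actb*, an mRNA that IGF2BP1 transports, at 796 TPM against 285 to 574 TPM. *Wtap*, of the m6A writer complex, was at 46.9 TPM there and at 14.4 to 20.3 TPM elsewhere, the eraser *Fto* at 45.0 against 9.07 to 20.7 TPM, and the reader *Ythdf1* at 36.3 against 9.64 to 17.1 TPM. None of these 21 genes was called between the mice, and neither was any of the 13268 genes tested with 6 tumors.

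*Mest*, which encodes an enzyme of the hydrolase family and serves as a classic imprinted gene of mesoderm, lies at chr6:30733506-30748466. It stood at 27.8, 3.05 and 1.79 TPM in M1T1, M1T2 and M1T3, and at 0.808, 1.08 and 0.832 TPM in M2T1, M2T2 and M2T3. The mice did not overlap, with every tumor of mouse 1 above every tumor of mouse 2, and M1T1 was 9.12-fold over the next. Among the 12518 genes averaging at least 1 TPM, 41.9% had every tumor of mouse 1 above every tumor of mouse 2, and 9.15% had M1T1 at the top by at least as large a fold. Reads were 1123, 109 and 92 in mouse 1 and 26, 44 and 32 in mouse 2. A coding transcript of 2561 bases took most of them in 5 tumors, while in M2T3 another of 2383 bases took 27.7 of 32.2 estimated reads. *Copg2*, the neighbor that overlaps *Mest* on the other strand, was at 41.0 TPM in M1T1 and at 7.10 to 15.3 TPM in the other 5. The sources do not say whether counting used the strand, so reads where these genes overlap cannot be told apart. *Klf14* reached 0.108 TPM in M1T1 alone, and *Tsga13* and *Cpa4* of the same imprinted domain had no reads.

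*Peg3*, a zinc finger protein of the paternally expressed class, lies at chr7:6703892-6730462. It stood at 28.1, 0.650 and 0.530 TPM in M1T1, M1T2 and M1T3, and at 0, 0.0391 and 0.00641 TPM in M2T1, M2T2 and M2T3. M1T1 was 43.2-fold over the next, and again every tumor of mouse 1 was above every tumor of mouse 2. M1T1 was the highest by at least this fold in 1.60% of the 12518 genes. The reads were 4042, 96 and 97 in mouse 1 and 0, 6 and 1 in mouse 2. Its neighbors in the imprinted domain were also highest in M1T1: *Usp29* was at 2.07, 0.0462 and 0.0515 TPM and *Zim1* at 3.74, 0.0906 and 0.0282 TPM in mouse 1, with 0 in all tumors of mouse 2, while *Zfp264* had no reads. Exons of *Peg3* and *Usp29* overlap in the annotation, so reads may be divided between them with error.

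The levels of *Peg3* and *Mest* in M1T2 and M1T3 were set beside those of other genes that were high in M1T1. For 34 genes with at least 100 TPM in M1T1 and at most 0.1 TPM in every tumor of mouse 2, a group defined after the values were seen, M1T2 held a median of 1.82% (quartiles 1.41% and 2.08%) and M1T3 a median of 1.72% (quartiles 1.31% and 2.37%) of the level in M1T1. *Peg3* was at 2.31% of its M1T1 level in M1T2, just over the upper quartile, and at 1.89% in M1T3, between the quartiles. *Mest* was at 11.0% and 6.45%, above both upper quartiles. It was at 0.808 to 1.08 TPM in mouse 2, over the limit of 0.1 TPM for this group. Its shares are therefore not measured on a like basis. The comparisons of *Peg3* and *Sulf1* between the mice without M1T1 rest on these small remainders in M1T2 and M1T3. What part RNA of M1T1 has in the values of M1T2 and M1T3 was not tested.

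Among 16 measured genes of 19 from other imprinted domains, 11 averaged at least 1 TPM, and 8 of the 11 were highest in M1T1. *Gnas*, which encodes a G protein subunit, was at 1006 TPM there and at 376 to 562 TPM in the other 5, and *Slc38a4*, an amino acid transporter of hepatocytes, went the other way, with 53.4 against 138 to 232 TPM. *Snrpn* was at 24.4 TPM against 10.3 to 17.1 TPM. 3 others, chosen after their values were seen, had the shape of *Peg3*: the fetal growth factor gene *Igf2* was at 31.6 TPM in that tumor and at most 0.617 TPM elsewhere, *Ndn* at 27.0 against at most 0.763 TPM, and *Nnat* at 27.2 against at most 0.394 TPM. None of the 12 that could be tested was called between the mice, beside 0 of all 13268 genes tested with 6 tumors.

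Mouse 2 was compared with mouse 1, the only grouping the labels give, by edgeR's quasi-likelihood test on rounded estimated counts. Since only 2 animals are compared, the error comes from the spread among tumors within each. Of the 10 genes, 7 passed the filter on low counts, *Igf2bp1*, *Lin28a* and *Lin28b* did not, and 0 of the 7 were called at an adjusted p under 0.05 with 6 tumors. Over all 13268 genes tested, 0% were called higher and 0% lower, with 1449 genes at an unadjusted p under 0.05. At an unadjusted p under 0.05 there were 2 members, *Mest* and *Peg3*. Limma-voom also called 0 members with 6 tumors, and DESeq2 called 0 of 6, since it gave no p for *Peg3*. The log2 fold change was −8.23 ± 2.10 for *Peg3* (SE, edgeR, adjusted p = 0.412), −2.77 ± 0.977 for *Mest* (adjusted p = 0.418) and 2.12 ± 0.898 for *Afp* (adjusted p = 0.469). The other 4 were between 0.62 and 1.66. Their median over the 7 was 1.45, beside −0.04 over all genes tested.

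Without M1T1, edgeR called 0 of 7 members as well, while 0.419% of 13374 genes were called higher and 0.837% lower in mouse 2. *Peg3* was nearest to the threshold, with a log2 fold change of −4.80 ± 0.887 (SE, edgeR, adjusted p = 0.0615). It passed with DESeq2 (adjusted p = 3.4e-05), with limma-voom (adjusted p = 0.0370) and in edgeR with no filter on low counts (adjusted p = 0.0280), so its call depends on the tool and the filter. Over the 16 settings that gave one its adjusted p ran from 3.4e-05 to 0.902. *Mest* had −1.04 ± 0.368 (edgeR, adjusted p = 0.203), and the 5 other members had 0.64 to 2.58 with adjusted p from 0.316 to 0.659. The median of the 7 members was 0.93, beside 0.01 over all genes tested. The fitted log2 fold changes of *Afp*, *Gpc3*, *Dlk1*, *Igf2bp2* and *Igf2bp3* were above 0 without a call, and their tumors overlapped between the mice. In TPM with 6 tumors, *Gpc3* averaged 9.04 in mouse 1 and 8.64 in mouse 2. With M1T1 kept and M2T2 left out instead, the fitted values of *Afp* and *Dlk1* were 0.89 and 0.79, and those of *Gpc3* and *Igf2bp2* were below 0.

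**Figure D4:**
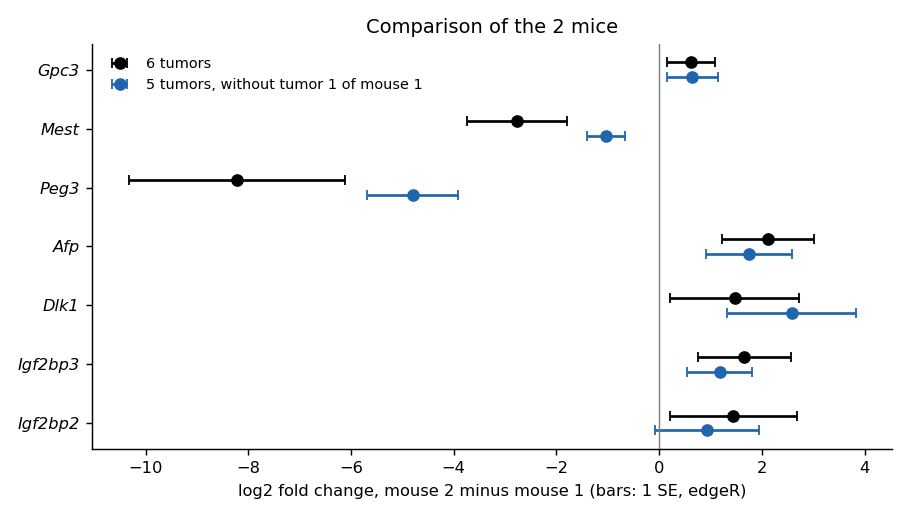
Log2 fold change of mouse 2 minus mouse 1 with 1 SE, derived from edgeR's F statistic, for the 7 genes tested, with 6 tumors and with 5 tumors. *Mest* and *Peg3* lie below 0 and the other 5 at or above 0.62, and none passed an adjusted p of 0.05 in either fit.

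The highest tumor differed among the members. Of the 8 detected, M2T2 had the highest level of 4 (*Afp*, *Gpc3*, *Dlk1*, *Igf2bp2*), M1T1 of 3 (*Mest*, *Peg3*, *Igf2bp1*) and M2T1 of *Igf2bp3*. Of the 6 members averaging at least 1 TPM, 3 were highest in M2T2 and 2 in M1T1. Among the 12518 genes at that level, 5.86% were highest in M2T2 and 62.6% in M1T1. Without M1T1, 3 of the 5 members averaging at least 1 TPM were highest in M2T2. Among the 11324 genes at that level in those 5 tumors, the share was 15.8%. The summed level of the 10 genes was 70.4, 15.6 and 13.9 TPM in M1T1, M1T2 and M1T3, and 12.9, 32.6 and 6.69 TPM in M2T1, M2T2 and M2T3. In the 5 tumors other than M1T1, *Afp* and *Gpc3* had the same tumors at the top, M2T2, and at the bottom, M2T3. Pearson's r of log2(TPM + 1) over the 6 tumors was 0.990 for *Mest* with *Peg3*, 0.819 for *Gpc3* with *Dlk1* and 0.523 for *Afp* with *Gpc3*. Without M1T1 these were 0.953, 0.795 and 0.934. Over the 15 pairs of the 6 members averaging at least 1 TPM, r ran from −0.677 to 0.990 with 6 tumors and from −0.353 to 0.953 with 5. These values describe 6 or 5 points from 2 animals, and the levels of a tumor share a library.

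The genes whose pattern over the 6 tumors was most like a member, among 11997 named genes averaging at least 1 TPM, were found by the same r. For *Afp* they included *Gca* and *Chac1*, with r of 0.985 and 0.979, and *Chac1*, an enzyme that degrades glutathione, was at 12.8 TPM in M2T2 and at 1.70 to 5.05 TPM elsewhere. For *Gpc3* they were *Atp6v0e*, *Rpp40* and *Elovl6*, with r from 0.977 to 0.992, and *Elovl6*, a fatty acid elongase, was at 30.0 TPM in M2T2 and at 12.4 TPM in M2T3. For *Dlk1* they were *Glrx5*, *Bace2* and *Trappc2b* (0.940 to 0.961), and for *Igf2bp3* they were *Dusp14*, *Slc28a1* and *Plcxd1* (0.993 to 0.996). For *Mest* they were *Mcub*, *Cdc37l1* and *Ttn* (0.999 each), and for *Peg3* *Cntnap4*, *Flrt2* and *Efnb2* (0.9999 each), all 6 of which were highest in M1T1. Of the 18 genes so chosen, 1 was chosen again without M1T1.

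Other fetal and liver cancer markers gave a mixed picture. Of 16 measured, 10 averaged at least 1 TPM, with 4 highest in M2T2 and 4 in M1T1. *Ly6d*, a surface protein, was at 1859.8 TPM in M2T2, 1805 TPM in M2T1 and 27.5 TPM in M1T1. *Aldh1a1*, a retinaldehyde dehydrogenase, was at 94.5 TPM in M1T1 and at 958 to 1574 TPM elsewhere, and *Lcn2* at 5.001 against 88.5 to 155 TPM. The embryonic globins *Hbb-bh1*, *Hbb-y* and *Hba-x*, which mark the earliest blood cells, had no reads, nor did the pluripotency factors *Pou5f1*, *Nanog* and *Sox2*. *T*, the mesoderm factor brachyury, was at 651, 10.4 and 11.3 TPM in M1T1, M1T2 and M1T3 and at 0 in M2T1, M2T2 and M2T3, and was called lower in mouse 2 without M1T1 (edgeR, adjusted p = 0.0219), again from the small levels in M1T2 and M1T3.

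**Figure D5:**
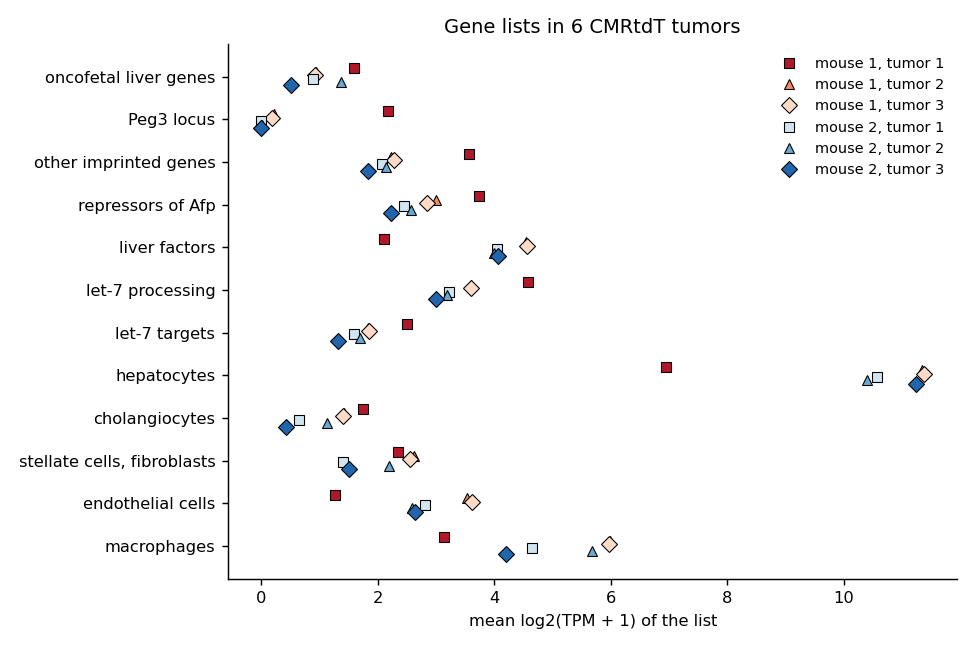
Mean log2(TPM + 1) of the 10 genes and of 11 other lists, with 1 point per tumor. The hepatocyte list is at 6.96 in M1T1 and at 10.41 to 11.38 in the other 5, while the let-7 processing and imprinted lists are highest in that tumor.

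Markers of other cells were compared with the members' levels as whole lists. In the 5 tumors other than M1T1, macrophage markers summed to 169 to 606 TPM, with 528 TPM in M2T2, the tumor with the most *Afp* and *Gpc3*, and 169 TPM in M2T3, the tumor with the least. Stellate cell and fibroblast markers summed to 72.2 TPM in M2T2 and to 24.3 and 27.1 TPM in M2T1 and M2T3, and cholangiocyte markers to 21.7 against 5.51 and 4.61 TPM. *Spp1* took most of the last sum, with 17.6 TPM in M2T2 and 1.40 and 4.17 TPM in M2T1 and M2T3, while *Krt19* was at 0.712, 1.83 and 0.241 TPM. The tumors of mouse 1 had at least as much of these 3 lists as M2T2, apart from macrophage markers in M1T1, at 94.5 TPM, and less *Afp*. *Cftr* of the cholangiocyte list was at 0 in 3 tumors. Mitochondrial genes took 12.9% of reads in M2T2, 16.05% and 18.4% in the others of mouse 2, and 6.90% to 8.38% in mouse 1. The part of these cells and shares in the levels of *Afp*, *Gpc3* and *Dlk1* was not tested.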

How the data were processed

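RNA of 6 CMRtdT liver tumors was sequenced as poly A enriched libraries (Illumina NovaSeq, paired-end), although the labels name total RNA. The authors deposited, for each tumor and Ensembl mouse transcript, an estimated count of reads, which is not normalized, and a TPM, scaled by the authors for effective length and depth. The layout is that of Salmon. GRCm38, BWA and Picard stand in the submitters' processing notes. Neither the index release nor the strand setting is given in the sources used here.

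Estimated counts and TPM were summed per gene by matching transcript identifiers to the GENCODE vM39 annotation, used for names alone (114813 transcripts matched and 1733, with 0.373% to 0.680% of counts, did not). Gene positions and promoter windows are from RefSeq tables of GRCm38.p6. Rounded counts were tested with edgeR 4.0.16 (quasi-likelihood, TMM, filterByExpr with a minimum count of 10, two-sided, Benjamini-Hochberg over all genes), with DESeq2 1.42.0 and limma-voom (limma 3.58.1) as alternatives. The SE given with edgeR was derived as the absolute log2 fold change divided by the square root of the F statistic of its test. The tests were also tried on simulated data. Tumors of a mouse share an animal, so p-values measure the spread between tumors. Without M1T1, mouse 1 holds M1T2 and M1T3 alone. Their levels were close for *Alb* (16079 and 16603 TPM), *Gc* (3941 and 4041 TPM) and *Sulf1* (0.805 and 0.770 TPM). They were not close for *Dlk1* (0.191 and 0.912 TPM, from 4 and 16 reads). How far these tumors are independent was not tested, so p-values without M1T1 may understate the error. Intervals are 95% exact Poisson intervals on rounded reads. Likeness used Pearson's r of log2(TPM + 1), with a pseudocount of 1. Software was R 4.3.3 and Python 3.11.15 with scipy 1.17.1, pandas 2.3.3, numpy 2.4.6 and matplotlib 3.10.9.

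The 10 members and the lists of genes were chosen with earlier results of these data known, and the fits of 5 tumors by other tools were added after the data were seen. From each list the 3 genes with the highest mean TPM, up to 3 called genes, genes of a member's family or locus, and the 3 genes most like each member were named. Some genes that this rule names are not reported here. Alternatives were other tools, scalings and filters, tumor number as a block, coding transcripts alone, a lower TPM threshold, and leaving out each tumor. Exome and single-cell data were not analysed here.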

Additional observations from a re-analysis of the deposited data

Results flagged for a closer look

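In 4 of the 8 detected genes, 1 tumor lay farther from its nearest neighbor, as a share of the whole range of log2(TPM + 1) over the 6 tumors, than Dixon's 95% critical value for 6 values allows. Chance marks about 1 in 20 such groups, but of the 12518 genes averaging at least 1 TPM, 38.8% passed it, 28.5% with M1T1 at the top and 0.0959% (12 genes) with M2T2 at the top. *Peg3* in M1T1 had a share of 0.851, with 28.1 TPM there and at most 0.650 TPM in another tumor. *Mest* in the same tumor had a share of 0.709, with 27.8 TPM against at most 3.05 TPM. *Afp* in M2T2 had a share of 0.632, with 7.85 TPM against at most 1.92 TPM. *Igf2bp1* in M1T1 had a share of 1, but this rests on 2 reads there and 0 in the other 5 tumors.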

How the results depend on the processing

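With 6 tumors, edgeR called 0 genes higher and 0 lower in mouse 2 with TMM, library size alone, relative log expression scaling, no filter and tumor number as a block, and limma-voom called 0 and 0, while DESeq2 called 133 and 69, none of them a member, and gave no p for *Peg3*, which is left out of the comparison there. Leaving out 1 tumor at a time gave 0 to 56 genes higher, 0 to 112 lower and 0 members called, where the highest counts came without M1T1. In those 5 tumors DESeq2 called 782 higher and 587 lower, limma-voom 177 and 300, edgeR with library size alone 20 and 131, and edgeR with no filter 197 and 263. Members called were 1 (*Peg3*) with DESeq2, limma-voom and no filter, and 0 with TMM and with library size alone, where the adjusted p of *Peg3* was 0.068. Library size alone moved the median log2 fold change of all genes to −0.55 with 6 tumors and −0.24 with 5. With a tumor left out, the log2 fold change of *Gpc3* ran from −0.0085 to 0.92 and that of *Igf2bp2* from −0.051 to 1.95, below 0 without M2T2, and those of the other 5 members kept their sign in all 17 settings. The cause was not tested.

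Tumor numbers do not pair the tumors of the mice, since the deviations of same-numbered tumors had correlations of 0.0252, −0.0431 and 0.0494 across genes and the labels name no shared litter or day. With tumor number as a replicate block, 0 genes were called higher, 0 lower and 0 members. Members with a mean of at least 1 TPM numbered 6, and 5 with coding transcripts alone, 7 at a threshold of 0.5 TPM and 4 to 6 with a tumor left out. Of 18 genes most alike to a member, 8 were chosen again with log2(TPM + 0.1), 9 with no minimum mean TPM and 1 without M1T1. Depth limits *Peg3*, *Dlk1*, *Igf2bp2*, *Igf2bp3* and *Afp*, which had under 20 reads in at least 1 tumor.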
